A study of Mus musculus with 18 samples.

Results

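Transcripts of 7 genes were followed through adenovirus infection of the mouse salivary gland: the interferons Ifnb1 and Ifng, and the receptor chains Ifnar1, Ifnar2, Ifngr1, Ifngr2 and Il10rb. They were taken by name from 55401 Ensembl genes counted in 18 libraries, and all 7 passed the filter on low counts. The libraries are bulk RNA from gp38+ stromal cells, which FACS had sorted out of the salivary glands of WT Balb/c mice aged 8 to 12 weeks. gp38 is podoplanin, a surface glycoprotein of fibroblastic stroma and of some epithelial and lymphatic cells. Each of 6 groups holds 3 libraries, and every library has a mouse number of its own. Hour 0 was not infected, and whether its glands were cannulated is not given in the sources used here. Hour 3, day 1, day 2, day 8 and day 23 are times after replication-defective adenovirus 5 was passed into the submandibular duct at 100000000 to 1000000000 plaque forming units, a treatment used to bring on ectopic lymphoid structures in the gland. No label says whether a mouse number stands for 1 animal or a pool, so p-values measure the spread between these samples. In bulk samples, fewer cells of a type and less RNA per cell cannot be told apart.

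Interferon beta, the product of Ifnb1, is a type I interferon that many cells release when they sense viral nucleic acid. It binds a receptor of the Ifnar1 and Ifnar2 chains, whose kinases Tyk2 and Jak1 activate STAT factors, which join Irf9 to switch on antiviral genes. Interferon gamma, the product of Ifng, comes mainly from T cells, NK cells and innate lymphoid cells. It binds Ifngr1, and Ifngr2 completes that receptor, which signals through Jak1 and Jak2. Il10rb is a chain shared by the receptors of interleukin 10, interleukin 22 and the type III interferons, where it pairs with Il10ra, Il22ra1 or Ifnlr1.

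On GRCm38 (mm10), Ifnb1 is a single exon of 750 bases at chr4:88522025-88522774 on the minus strand. Ifng lies at chr10:118441046-118445892 and Ifngr1 at chr10:19591949-19610229, both on the plus strand. The other receptor genes are neighbours on the plus strand of chromosome 16: Ifnar2 at chr16:91372783-91405589, Il10rb at chr16:91406164-91425834, Ifnar1 at chr16:91485238-91507441 and Ifngr2 at chr16:91547072-91565623. Gm21970, a gene model on the same strand, shares 315 exonic bases with Ifnar2 and 569 with Il10rb. It held 0 counts in every library, which does not show how reads on the shared bases were assigned. The Ifnar2 and Il10rb counts, and their values per kb, are uncertain over those bases. Gm49751 shares 336 exonic bases with Ifng on the same strand and held 0 to 25 counts per library, so the Ifng counts are uncertain over that stretch.

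RefSeq promoter windows (GRCm38.p6) were matched for 6 of the 7 genes, all but Il10rb, and 250 bases before the start were searched on both strands for 4 short motifs. The window of Ifnb1 is shown because it had the highest group mean of the type I ligands, at day 1, though not at hour 0 or day 2. Those of Ifnar2 and Ifngr2 are shown because these had the highest receptor fold changes at hour 3. Each runs 5′ to 3′ towards the start, with the motif match in capitals.
Ifnb1, chr4:88522795-88523044, minus strand: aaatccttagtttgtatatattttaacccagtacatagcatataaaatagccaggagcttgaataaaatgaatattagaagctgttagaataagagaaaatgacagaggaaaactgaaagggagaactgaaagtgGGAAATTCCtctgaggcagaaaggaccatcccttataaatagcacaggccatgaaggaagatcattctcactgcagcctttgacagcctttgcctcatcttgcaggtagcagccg
Ifnar2, chr16:91372533-91372782, plus strand: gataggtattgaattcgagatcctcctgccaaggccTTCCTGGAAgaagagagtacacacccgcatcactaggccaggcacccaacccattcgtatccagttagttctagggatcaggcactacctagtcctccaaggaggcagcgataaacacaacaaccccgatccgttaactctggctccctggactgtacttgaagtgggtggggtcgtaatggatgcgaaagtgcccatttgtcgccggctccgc
Ifngr2, chr16:91546809-91547058, plus strand: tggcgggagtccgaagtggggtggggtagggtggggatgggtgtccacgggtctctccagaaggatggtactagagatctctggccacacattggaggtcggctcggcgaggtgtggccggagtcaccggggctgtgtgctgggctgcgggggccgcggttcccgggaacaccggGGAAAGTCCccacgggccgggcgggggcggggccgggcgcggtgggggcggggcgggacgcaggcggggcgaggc
Distances are counted from the RefSeq start, which for Ifnb1, Ifngr2 and Ifnar1 lies some bases upstream of the gene coordinates given above. The capitals in Ifnb1 and Ifngr2 match the NF-kB core GGAANNNCC, starting 115 and 75 bases before the start, and 15.7% of 32851 promoters hold that motif. Those in Ifnar2 match the gamma-activated site TTCNNNGAA, 214 bases before the start, which 7.02% of promoters hold. Ifng holds the same motif 249 bases before its start. The interferon-stimulated response element core GAAANNGAA, held by 7.13% of promoters, and the AP-1 motif TGANTCA, held by 6.75%, have no match in these 6 windows, and the windows of Ifnar1 and Ifngr1 hold none of the 4. A match is a description of letters, not a site of binding. The lack of a match holds for these exact letters and spacings only and does not show that such elements are absent.

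Total counts ran from 4398234 to 15234431 per library, with a median of 10227904. Stromal markers were abundant but not even over time. In CPM (reads scaled to a common library size by the TMM method), 8 of them (among them Pdpn, Pdgfra, Col1a1 and Dcn) summed to 24386 to 28856 at hour 0, 42898 to 43741 at hour 3, 11013 to 14975 at day 1, 14729 to 22603 at day 2, 25787 to 29334 at day 8 and 22742 to 36706 at day 23. At hour 3 against hour 0, 6 of the 8 rose and 0 fell (1 and 2 with library totals). At day 1 against hour 0, 1 rose and 6 fell: Pdpn, the gene of the sorting marker, averaged 338 CPM at day 1 and 60.4 at hour 0, whereas Pdgfra averaged 182 CPM at day 1 and 1922 at hour 0. Summed over 8 epithelial genes, CPM was 397 to 662 at hour 0, 865 to 1239 at hour 3, 203 to 261 at day 1, 110 to 198 at day 2, 2841 to 3359 at day 8 and 801 to 1770 at day 23. Counts per kb of exon on 1502 olfactory, vomeronasal and taste receptor genes, which serve as a background, were 0.565 to 2.01 in the 9 libraries numbered 10 to 18 (hour 0, day 1 and day 2) and 0.0116 to 0.0854 in those numbered 1 to 9 (hour 3, day 8 and day 23). The labels name no batch, so for hour 3, day 8 or day 23 against hour 0 the infection and this difference cannot be told apart, while the other 6 comparisons stay within one set of 9. When TMM was replaced by library totals alone, the median log2 fold change of all genes moved by -1.15 for hour 3 against hour 0, 0.76 for day 8 against hour 3 and 0.70 for day 23 against hour 3. Against hour 0 that median moved by 0.37 for day 2, -0.39 for day 8 and -0.44 for day 23, and it moved by 0.27 for day 2 against day 1. DESeq2 size factors moved it by 0.21 in both day 2 comparisons. Fold changes below are relative to the TMM scale, adjusted p-values are from edgeR's quasi-likelihood test with Benjamini-Hochberg adjustment over 27525 genes, and a gene rose or fell where that p is under 0.05.

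Ifnb1 was found at low counts, with the most reads in a pair of day 1 libraries. At hour 0 the 3 libraries held 2, 2 and 8 Ifnb1 reads, and at hour 3 they held 10, 6 and 2. At day 1 the counts were 66 and 38 in replicates 13 and 15 but 2 in replicate 14, and at day 2 they were 6, 11 and 5. All 6 libraries of day 8 and day 23 had 0 Ifnb1 reads. The groups from hour 0 to day 2 overlapped one another, and day 8 and day 23 lay below all of them.

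In the hour 3 libraries the receptor-gene rate predicts 0.0640, 0.0462 and 0.0420 reads for a gene of the length of Ifnb1, and 14 interferon alpha family genes, relatives of Ifnb1 that share sequence with each other, held 1 read in all 3 libraries together. Ifnb1 had more reads per kb than every one of these 14 genes in each hour 3 library and in day 1 replicates 13 and 15. In day 1 replicate 14 and in every hour 0 and day 2 library, at least 1 alpha family gene had more. The receptor-gene rate predicts 0.759, 0.939 and 0.861 Ifnb1 reads in the hour 0 libraries, and 0.977, 1.22 and 1.51 in those of day 2. Per kb, the pooled alpha family had 6.40, 7.82 and 7.82 reads in the hour 0 libraries, where Ifnb1 had 2.67, 2.67 and 10.7. The alpha family summed to 217, 134 and 244 reads at hour 0, day 1 and day 2, and to 1, 3 and 0 at hour 3, day 8 and day 23, so it was high in the libraries with the high receptor-gene background. Of 19 other interferon genes 8 passed the filter. Against hour 0, 5 of them were lower at hour 3, 5 at day 8 and 5 at day 23, beside 43.1%, 32.7% and 25.4% of all genes, and 1, Ifnk, was higher at day 2, beside 5.12%.

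**Figure D1:**
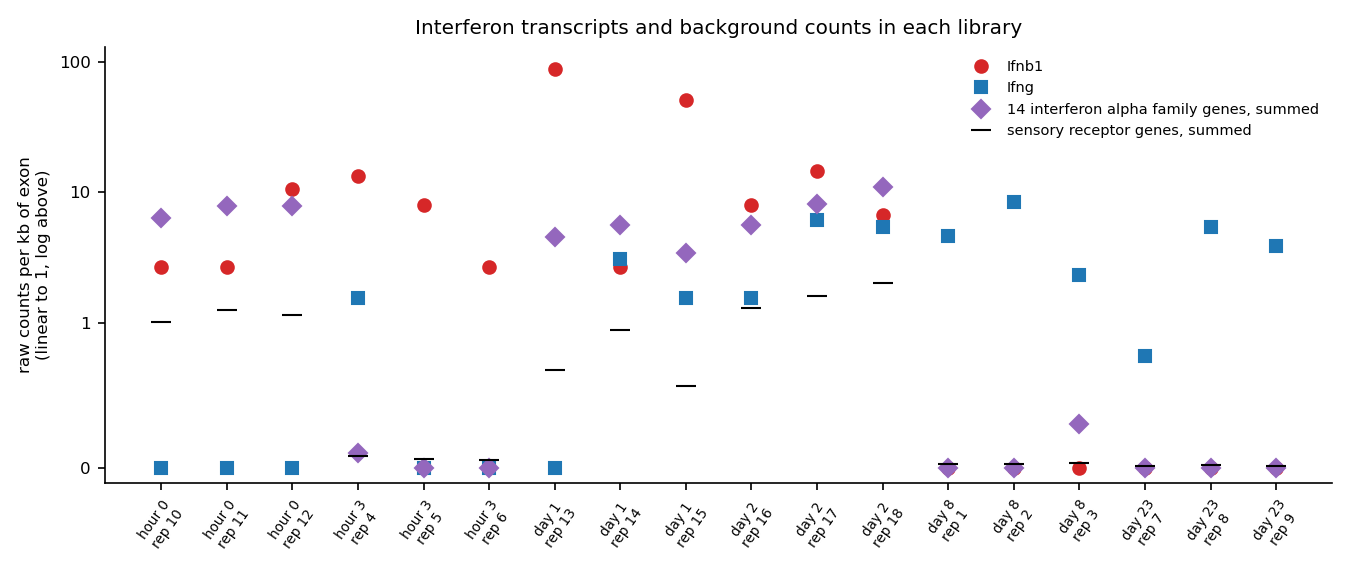
Raw counts per kb of exon in each library for Ifnb1, Ifng, the interferon alpha family (14 genes pooled) and the sensory receptor genes (1502 genes pooled), on an axis that is linear up to 1 and logarithmic above. Ifnb1 stands highest in day 1 replicates 13 and 15, with 88.0 and 50.7 counts per kb, and is at 0 in all libraries of day 8 and day 23.

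At day 1 against hour 0, Ifnb1 had 106 reads in all against 12, a ratio of 7.41 after scaling (95% exact interval 4.07 to 14.8, counting error only). Its fitted log2 fold change was 2.88 ± 1.12 (SE) with an adjusted p of 0.0671, so it was not called. It was called without replicate 14 (3.42 ± 1.04, adjusted p 0.0174), with no filter on low counts (3.06, adjusted p 0.0491) and in a fit of only the 9 libraries of its set (3.01, adjusted p 0.0444). At hour 3 against hour 0 the totals were 18 and 12 reads, a ratio of 2.04 (0.928 to 4.63), with an adjusted p of 0.410. Ifnb1 was lower at day 8 than at hour 3, with 0 against 18 reads, at least 9.70-fold lower on a floor of 3 counts over the group (adjusted p 0.00540). It was also lower at day 23 than at hour 3, at least 5.55-fold (adjusted p 0.0174), a call lost without replicate 4 (0.0611) or replicate 8 (0.0794). Day 8 was at least 4.76-fold lower than hour 0 (adjusted p 0.0206), lost without replicate 1 (0.0598), 2 (0.0585), 3 (0.0648) or 12 (0.0663). The comparisons of hour 3 and day 8 with hour 0 cross the background difference, whose part in the hour 0 reads was not tested.

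Plasmacytoid dendritic cells and macrophages are known sources of type I interferon. Siglech, a defining gene of mouse plasmacytoid dendritic cells, averaged 0.102 CPM at day 1 and 0.915 at hour 0, and was at 0 in the hour 3 and day 23 libraries. Summed over 6 plasmacytoid dendritic cell genes, of which Bst2 and Irf8 are also in the interferon-response lists, CPM ran from 447 to 497 at hour 0, 465 to 577 at hour 3 and 605 to 664 at day 1. Most of the hour 0 sum was Tcf4, which averaged 424 CPM at hour 0 and 117 at day 1. Bst2 averaged 18.5 CPM at hour 0 and 437 at day 1, so the sum joins opposite changes and does not follow one cell type. At day 1 against hour 0, 3 of the 6 rose and 1 fell, and Pacsin1, another of them, averaged 27.1 CPM at day 1 and 3.57 at hour 0. Summed over 10 macrophage, monocyte and dendritic cell genes, the libraries held 26.6 to 45.7 CPM at hour 0, 30.4 to 53.8 at hour 3, 18.1 to 20.6 at day 1, 50.9 to 52.7 at day 2, 142 to 179 at day 8 and 54.8 to 91.9 at day 23. The part of either cell type in the Ifnb1 counts was not tested.

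Ifng had the lowest mean level of the 7 transcripts per kb from hour 0 to day 2, while at day 8 and day 23 Ifnb1, with 0 reads, was lower. Libraries overlapped between Ifng and Ifnb1 at day 1 and day 2, and in day 1 replicate 14 Ifng was at 0.269 and Ifnb1 at 0.232 CPM per kb. No Ifng read was found in the 3 hour 0 libraries, which allows at most 0.0960 CPM over the group on a floor of 3 counts. Counts were 2, 0 and 0 at hour 3, 0, 4 and 2 at day 1, 2, 8 and 7 at day 2, 6, 11 and 3 at day 8, and 1, 7 and 5 at day 23. Every library from day 2 on held at least 1 Ifng read. The receptor-gene rate predicts 1.31, 1.62 and 1.49 reads in the hour 0 libraries, so the lack of reads there lies below that background. It predicts 1.69, 2.10 and 2.60 reads in the day 2 libraries but at most 0.0428 in any library of day 8 or day 23. Gm49751, which shares exonic bases with Ifng, held 17, 8 and 1 reads at hour 0 and 14, 21 and 25 at day 2. It held none at hour 3, 1, 0 and 7 at day 1, 1, 0 and 3 at day 8, and 0, 4 and 2 at day 23. The part of this overlap in the Ifng counts was not tested.

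Ifng was higher at day 2 than at hour 0 (at least 7.19-fold, adjusted p 0.0345), at day 8 (at least 5.60-fold, adjusted p 0.0208) and at day 23 (at least 6.36-fold, adjusted p 0.0243). These calls rest on few reads, and on a lack of reads at hour 0 that lies below the predicted background. The day 2 call was lost without replicate 1, 2, 10, 11, 12, 16, 17 or 18, with adjusted p-values of 0.0502 to 0.119, and with no filter on low counts (0.0599). The day 8 call was lost without replicate 2 (0.0728), and the day 23 call without replicate 8, 9, 10, 11 or 12 (0.0509 to 0.0691). Within the low-background libraries, Ifng had 20 reads at day 8 against 2 at hour 3, a ratio of 6.19 (1.503 to 54.6), and 13 at day 23 against 2 at hour 3, a ratio of 7.03 (1.59 to 64.2). Neither was called (adjusted p 0.260 and 0.216).

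Markers of the cells that make interferon gamma were measured in the same libraries. Summed over 8 T cell genes, CPM ran from 8.32 to 18.6 at hour 0, 0.386 to 1.98 at hour 3, 4.83 to 7.40 at day 1, 18.3 to 18.5 at day 2, 20.2 to 34.4 at day 8 and 17.5 to 26.3 at day 23. All 8 rose at day 8 against hour 3, and 7 of 8 at day 23 against hour 3, beside 16.5% and 15.7% of all genes. Against hour 0, where Ifng was called, 0 of the 8 rose at day 2, 1 at day 8 and 1 at day 23, beside 5.12%, 11.2% and 8.51% of all genes (0, 0 and 0 with library totals). Cd3d and Cd3e, which encode chains of the T cell receptor complex, were at 0 in the hour 3 libraries. Of 10 NK and innate lymphoid cell genes, which summed to 4.48 to 6.00 CPM at hour 3 and 12.0 to 19.8 at day 8, 9 passed the filter. Of these, 2 (Klrk1 and Tbx21) rose at day 8 against hour 3, near the share of all genes, and 0 at day 23 against hour 3 (5 and 4 with library totals). Of the same 9 genes, 1 rose at day 2, 3 at day 8 and 1 at day 23 against hour 0, and 0, 0 and 1 fell. All 10 summed to 8.11 to 17.2 CPM at hour 0 and, without overlap, to 19.98 to 23.7 at day 2. The sums of day 8 (12.0 to 19.8) and day 23 (4.64 to 12.2) overlapped those of hour 0. The part of these cells in the Ifng counts was not tested.

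**Figure D2:**
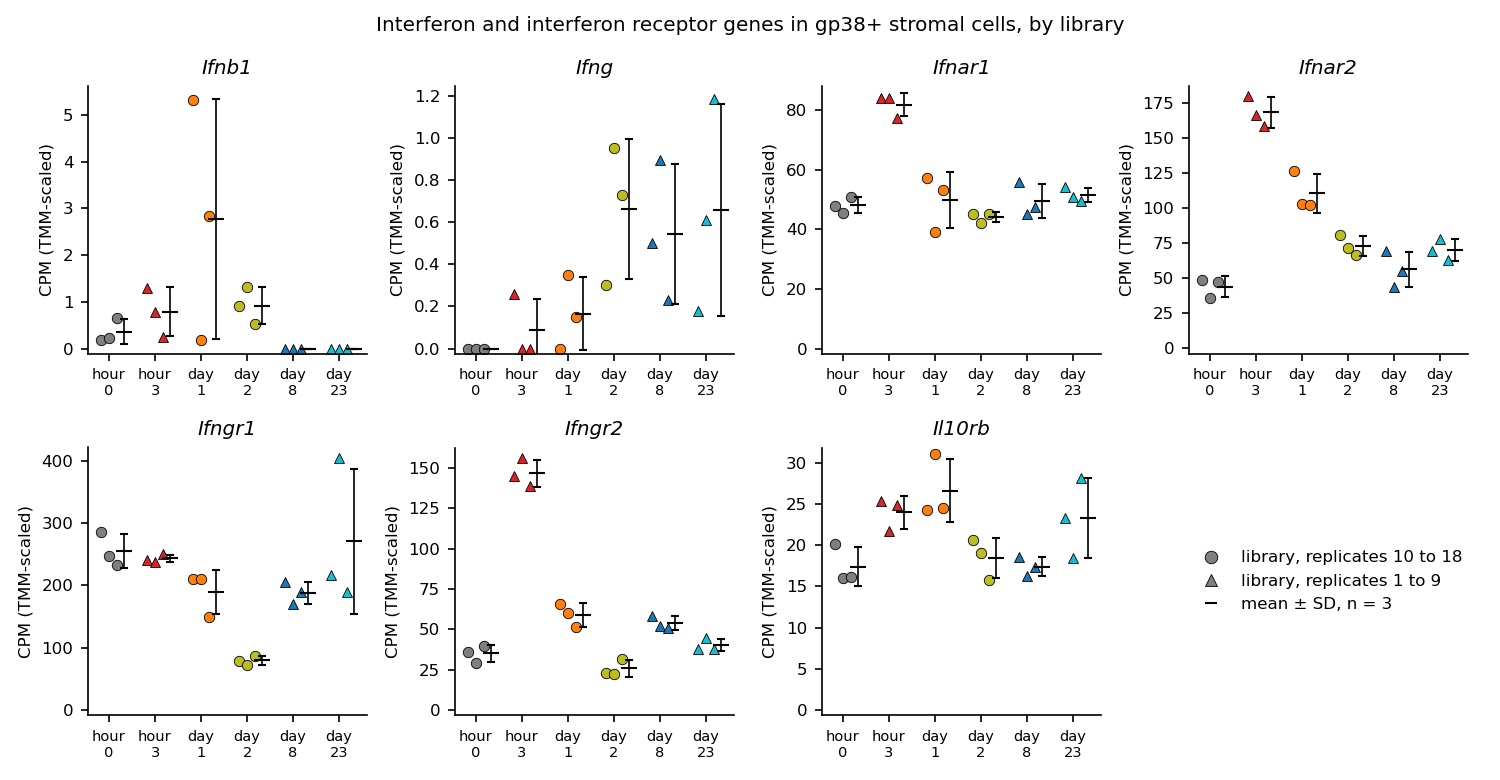
TMM-scaled CPM of the 7 genes in each of the 18 libraries, by time group on the x axis, with the mean and SD of 3 libraries beside the points. Ifnar2 and Ifngr2 are highest in all 3 hour 3 libraries (158 to 179.6 and 139 to 156 CPM), Ifngr1 is lowest in the 3 day 2 libraries (72.9 to 87.2 CPM), and the highest interferon value is 5.32 CPM, for Ifnb1 in day 1 replicate 13.

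The receptor chains were all expressed at every time, with group means per kb above those of both ligands. At day 1, Il10rb averaged 7.00 CPM per kb and Ifnb1 3.70. Per kb of exon, Ifngr1 had the highest mean of the 7 genes in each group, from 28.0 ± 2.53 CPM per kb at day 2 to 95.02 ± 41.1 at day 23 (SD, n = 3), and Il10rb had the lowest mean of the 5 receptor genes, from 4.57 to 7.00. Ifnar2 had the second highest mean in each group, with 50.5 ± 3.24 CPM per kb at hour 3 and 13.2 ± 2.20 at hour 0. Ifngr2 came next, with 39.0 ± 2.26 at hour 3 and 9.32 ± 1.43 at hour 0, except at day 2, where Ifnar1 (7.44 ± 0.289) lay above Ifngr2 (6.84 ± 1.41). Neighbours in this order overlapped between libraries for Ifngr2 and Ifnar1 at hour 0 and day 2, for Ifnar2 and Ifngr2 at day 8 and for Ifnar1 and Il10rb at day 1. Ifnb1 in day 1 replicate 13 also reached the level of Il10rb per kb.

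At hour 3 against hour 0, 3 of the 7 genes rose and none fell, while 60.0% of all genes were called, 16.9% higher and 43.1% lower. The 3 were Ifnar1, Ifnar2 and Ifngr2, and Ifngr1 was not called. Ifnar2 had 179.6, 166 and 158 CPM at hour 3, against 49.0, 35.7 and 47.6 at hour 0. Ifngr2 had 145, 156 and 139 CPM at hour 3, against 36.1, 29.3 and 40.0 at hour 0. Neither pair of groups overlapped, and the stromal sum was higher at hour 3 as well, whose part in these levels was not tested. The log2 fold changes were 1.93 ± 0.18 for Ifnar2 (adjusted p 8.96e-10) and 2.06 ± 0.18 for Ifngr2 (adjusted p 1.76e-10). Ifnar1 had 84.2, 84.1 and 77.3 CPM at hour 3, against 48.0, 45.5 and 50.8 at hour 0, a log2 fold change of 0.77 ± 0.17 (adjusted p 0.000477). Ifngr1 averaged 243 ± 6.29 CPM at hour 3 and 255 ± 27.3 at hour 0, a log2 fold change of -0.07 ± 0.20 (adjusted p 0.775).

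With library totals alone the rises of Ifnar2 (0.75, adjusted p 0.00110) and Ifngr2 (0.89, adjusted p 0.000160) remained, but Ifnar1 turned round to -0.41 (adjusted p 0.0424), Il10rb turned from 0.46 to -0.72 and Ifngr1 fell by 1.25. Il10rb at hour 3 was called higher without replicate 10 (0.59, adjusted p 0.0489). Against hour 3, the later groups were lower. Ifnar2 averaged 56.3 ± 12.7 CPM at day 8 and 168 ± 10.8 at hour 3 (log2 -1.58 ± 0.18, adjusted p 3.83e-08), and Ifngr2 averaged 53.8 ± 4.23 CPM at day 8 and 147 ± 8.52 at hour 3 (-1.45 ± 0.18, adjusted p 1.16e-07). At day 23 Ifnar2 averaged 70.2 ± 7.63 CPM and Ifngr2 40.2 ± 3.67, against the same hour 3 means (-1.26 ± 0.18 and -1.87 ± 0.18). Ifnar1 fell by 0.72 ± 0.17 at day 8 and by 0.67 ± 0.17 at day 23 against hour 3, and under library totals both became 0.06 while Ifnar2 (-0.79 and -0.53) and Ifngr2 (-0.67 and -1.15) stayed lower. In each of these comparisons 4 of the 7 genes fell (Ifnb1, Ifnar1, Ifnar2 and Ifngr2) and none rose. Of all genes 30.7% were called at day 8 against hour 3 (16.5% higher, 14.1% lower) and 30.0% at day 23 (15.7% higher, 14.3% lower).

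**Figure D3:**
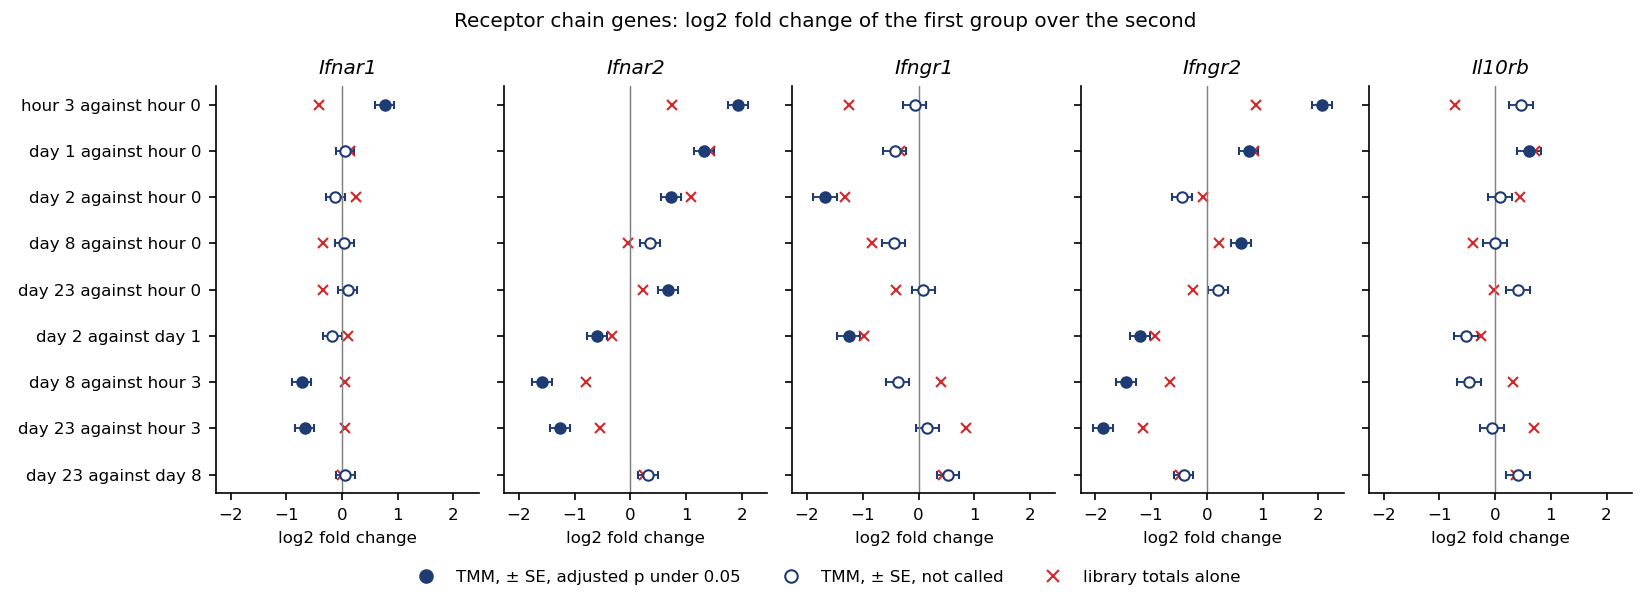
Log2 fold change of the first group over the second for the 5 receptor chain genes in 9 comparisons, as circles with SE on the TMM scale (filled where the adjusted p is under 0.05) and as crosses with library totals alone. Crosses and circles lie furthest apart in the comparisons that involve hour 3: Ifnar1 at hour 3 against hour 0 is at 0.77 as a circle and -0.41 as a cross, while Ifnar2 and Ifngr2 stay above 0 there. They also part elsewhere: Ifngr2 at day 8 against hour 0 is at 0.61 and 0.22, and Ifnar2 at day 23 against hour 0 is at 0.67 and 0.22.

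Within the libraries numbered 10 to 18, the receptor chains moved at different times. At day 1 against hour 0, 3 of the 7 genes rose, Ifnar2, Ifngr2 and Il10rb, beside 22.5% of all genes called, 9.67% higher and 12.8% lower. Ifnar2 had 127, 103 and 102 CPM at day 1, against 49.0, 35.7 and 47.6 at hour 0 (log2 1.32 ± 0.18, adjusted p 1.19e-06). Ifngr2 had 65.8, 60.2 and 51.3 CPM at day 1, against 36.1, 29.3 and 40.0 at hour 0 (0.75 ± 0.18, adjusted p 0.00187). Il10rb had 24.3, 31.1 and 24.5 CPM at day 1, against 20.1, 16.0 and 16.1 at hour 0 (0.61 ± 0.21, adjusted p 0.0381). No library of day 1 overlapped hour 0 for these 3 genes. The Il10rb call was lost on leaving out any one of replicates 1, 3, 4, 5, 6, 11, 12, 13, 14, 15, 16 and 17 (adjusted p 0.0555 to 0.133), and without the day 2 libraries (0.0504). Ifnar1 (log2 0.05 ± 0.17) and Ifngr1 (-0.43 ± 0.20, adjusted p 0.139) were not called. Ifngr1 was called without day 23 replicate 8 (adjusted p 0.0490).

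At day 2 the level of Ifngr1 was the lowest of the series. It had 78.9, 72.9 and 87.2 CPM at day 2, against 286, 247 and 233 at hour 0, and against 210.1, 210.6 and 149 at day 1. The day 2 libraries lay below those of both other groups, with a log2 fold change of -1.68 ± 0.21 against hour 0 (adjusted p 5.57e-07) and -1.25 ± 0.21 against day 1 (adjusted p 9.43e-05). Library totals gave -1.32 and -0.98, both called. The day 2 libraries also held the highest background and the lowest totals of their set, with 4398234 to 6313619 counts, and 6 of 8 epithelial and 4 of 8 stromal genes fell at day 2 against hour 0. The part of the low totals and of the epithelial and stromal changes in the fall was not tested. With the receptor-gene background subtracted the values were -1.60 and -1.14, both called.

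Against hour 0, day 2 had 3 of 7 genes called, Ifng and Ifnar2 higher and Ifngr1 lower, beside 14.8% of all genes called, 5.12% higher and 9.63% lower. Ifnar2 had 80.8, 71.6 and 66.7 CPM at day 2, above all hour 0 libraries (log2 0.73 ± 0.18, adjusted p 0.00446), a call lost without replicate 11 (0.0555). Against day 1, 3 of 7 fell, Ifnar2, Ifngr1 and Ifngr2, beside 23.2% of all genes called, 12.0% higher and 11.2% lower. Ifngr2 had 23.0, 22.4 and 31.9 CPM at day 2, below all day 1 libraries (-1.19 ± 0.18, adjusted p 2.51e-05). Ifnar2 fell by 0.60 ± 0.18 (adjusted p 0.0164), which was not called with DESeq2 size factors (-0.39), with library totals (-0.33), with DESeq2 (-0.39) or without replicate 13, 17 or 18. Against hour 0, Ifngr2 at day 2 was not called (-0.44 ± 0.18, adjusted p 0.105). Without replicate 18 it was lower (-0.64, adjusted p 0.0344).

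At day 8 and day 23 fewer receptor genes were called against hour 0 than at hour 3. Of the 7 genes, 3 were called at day 8 against hour 0 (Ifng and Ifngr2 higher, Ifnb1 lower, beside 43.9% of all genes called, 11.2% higher and 32.7% lower) and 2 at day 23 (Ifng and Ifnar2 higher, beside 34.0%, 8.51% and 25.4%). Ifngr2 had 58.6, 52.2 and 50.6 CPM at day 8, above its hour 0 values of 36.1, 29.3 and 40.0 (log2 0.61 ± 0.18, adjusted p 0.00842). That call was lost with library totals (0.22) and without replicate 2 (adjusted p 0.0649). Ifnar2 had 69.4, 78.2 and 63.0 CPM at day 23, above its hour 0 values of 49.0, 35.7 and 47.6 (0.67 ± 0.18, adjusted p 0.00814). That call was lost with library totals (0.22), in a fit of only those 2 groups (0.54) and without replicate 11 (adjusted p 0.0514). Ifngr1 at day 8 against hour 0 was not called in the fit reported here but was lower in 7 alternatives, among them library totals (-0.84, adjusted p 0.00190), DESeq2 (-0.57, 0.0249), only the 2 groups (-0.54, 0.00399) and without day 23 replicate 8 (-0.44, 0.0283). Ifnb1 was lower at day 23 than at hour 0 without day 1 replicate 14 (adjusted p 0.0374).

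Between day 23 and day 8 0 of the 7 genes were called by edgeR's quasi-likelihood test, beside 5.32% of all genes (2.25% higher, 3.08% lower). DESeq2 and limma-voom called 0 as well, and 2 genes, Ifngr1 and Ifngr2, had an unadjusted p under 0.05 (0.0155 and 0.0257). Without replicate 9, Ifngr1 was called (0.73, adjusted p 0.0439). Ifngr1 had 217, 405 and 189 CPM at day 23, against 205, 169.7 and 189.6 at day 8, so that replicate 8 of day 23 stood alone above the rest. Ifngr2 had 38.0, 44.4 and 38.1 CPM at day 23, below its 58.6, 52.2 and 50.6 at day 8 without overlap. Over the 6 groups together all 7 genes changed, as did 83.9% of all genes, with Ifngr2 at the lowest adjusted p (2.44e-12) and Ifng at the highest (0.0433). The call of Ifng over the 6 groups was lost without replicate 1, 2, 3, 5, 6, 8, 9, 10, 11, 12, 16, 17 or 18 (adjusted p 0.0508 to 0.105), and that of Il10rb without replicate 2, 3, 4, 6, 11, 14, 17 or 18 (0.0505 to 0.0792).

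The 2 chains of each receptor did not keep a fixed ratio. Within a library a ratio of counts per kb is free of the scaling, so it shows unequal change, though not which chain moved. Ifnar2 per Ifnar1 was 1.82, 1.40 and 1.67 at hour 0 and 3.81, 3.53 and 3.65 at hour 3. It stayed at 3.95, 4.69 and 3.43 at day 1 and 3.19, 3.02 and 2.63 at day 2, and was 2.21, 1.74 and 2.07 at day 8 and 2.28, 2.74 and 2.27 at day 23. Hour 3, day 1, day 2 and day 23 all lay above hour 0 without overlap, and day 8 overlapped it.

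Ifngr1 per Ifngr2 was 10.49, 11.1 and 7.73 at hour 0 and 2.20, 2.02 and 2.38 at hour 3, then 4.23, 4.63 and 3.84 at day 1 and 4.54, 4.30 and 3.61 at day 2. At day 8 it was 4.62, 4.30 and 4.96, and at day 23 7.57, 12.1 and 6.57, which overlapped hour 0. Hour 3 held the lowest ratio in every library, with geometric means of 2.19 at hour 3 and 9.67 at hour 0. Il10rb per Ifnar1 stayed between 0.403 and 1.23, and day 1 lay above hour 0 without overlap, with geometric means of 0.839 at day 1 and 0.562 at hour 0. Over 27 such comparisons of 3 ratios, exact two-sided permutation tests of 3 against 3 libraries gave 0.1 at best, the smallest p the design allows, and 0.15 after adjustment.

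**Figure D4:**
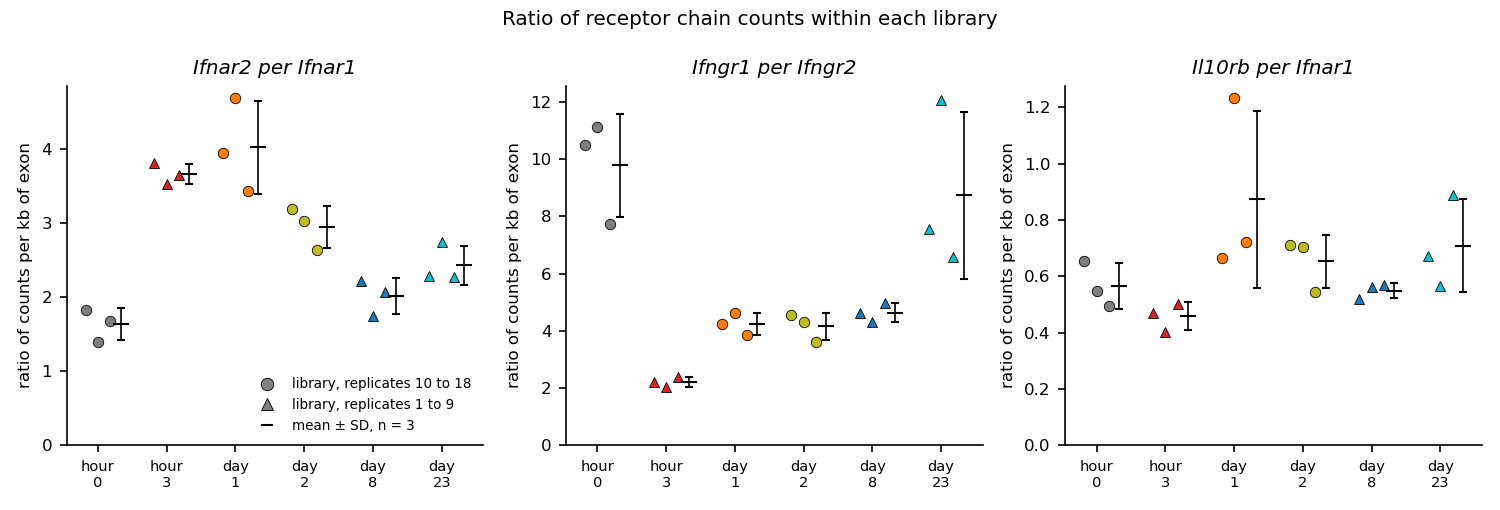
Ratio of counts per kb of exon for 3 pairs of receptor chains within each of the 18 libraries, by time group, with the mean and SD of 3 libraries beside the points. Ifngr1 per Ifngr2 is between 2.02 and 2.38 in the hour 3 libraries and between 7.73 and 11.1 in the hour 0 libraries.

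Downstream of the receptors, the kinases did not move as a block. Of 6 genes for the receptor kinases, STATs and Irf9, 4 rose and 1 fell at hour 3 against hour 0, beside 16.9% and 43.1% of all genes. Jak1, used by both receptors, averaged 1666 CPM at hour 3 and 265 at hour 0 (log2 2.65 ± 0.17, adjusted p 3.11e-13), and Jak2, the partner of Ifngr2, averaged 739.6 CPM at hour 3 and 56.8 at hour 0 (3.70 ± 0.20, adjusted p 1.03e-14). Tyk2, the partner of Ifnar1, fell to 4.65 CPM at hour 3, against 20.3 at hour 0 (-2.12 ± 0.26, adjusted p 1.54e-07). Those 3 calls kept their direction with library totals (1.47, 2.53 and -3.28), whereas Stat2 (0.51) turned to -0.67.

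At day 1 against hour 0, 4 of the 6 rose and none fell, beside 9.67% and 12.8% of all genes. Stat2 averaged 479 CPM at day 1 and 102 at hour 0 (2.23 ± 0.20, adjusted p 3.81e-10). Of the 6, 3 rose at day 2, 4 at day 8 and 2 at day 23 against hour 0 (4, 1 and 1 under library totals). The shares of all genes that rose there were 5.12%, 11.2% and 8.51%. Against hour 3, 2 rose, Tyk2 among them, and 3 fell (Jak1, Jak2 and Irf9) at both day 8 and day 23. Of all genes, 16.5% rose and 14.1% fell at day 8, and 15.7% rose and 14.3% fell at day 23. Under library totals 3 rose and 2 fell at day 8 against hour 3, and 3 rose and 3 fell at day 23 against hour 3. Against day 1, 3 of the 6 fell at day 2, Stat2 and Irf9 among them, beside 11.2% of all genes. Under library totals 0 of the 6 did so, and 1 without day 1 replicate 14.

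Of 8 genes that act on the receptors or remove their signal, 6 rose in the hour 3 libraries against hour 0, 5 in those of day 1, 4 in those of day 2, 5 in those of day 8 and 3 in those of day 23. Of all genes, 16.9%, 9.67%, 5.12%, 11.2% and 8.51% rose in these comparisons. Ptpn6, a phosphatase of blood cells above all, fell at hour 3 and at day 1, beside 43.1% and 12.8% of all genes. Under library totals 5 rose and 2 fell at hour 3, 2 rose and 1 fell at day 8, and 1 rose at day 23. Usp18, which binds Ifnar2 and damps its signal, averaged 212 CPM at hour 3 and 33.8 at hour 0 (2.65 ± 0.22) and 279 at day 1 (3.05 ± 0.23), and was not called at day 8 (0.06) or day 23 (-0.01). Socs1, an inhibitor of the kinases, averaged 52.8 CPM at day 1 and 12.6 at hour 0 (2.07 ± 0.32, adjusted p 8.63e-06). Ptpn2, a phosphatase of the kinases and STATs, averaged 133 CPM at hour 3 and 17.0 at hour 0 (2.96 ± 0.23).

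Of 14 sensors and factors that induce Ifnb1, 7 rose and 5 fell at hour 3 against hour 0, beside 16.9% and 43.1% of all genes, and 6 rose and 7 fell with library totals. Ifih1, a sensor of double-stranded RNA, averaged 721 CPM at hour 3 and 54.4 at hour 0 (3.73 ± 0.18), while Mavs, the adaptor it signals through, averaged 9.90 CPM at hour 3 and 35.1 at hour 0 (-1.82 ± 0.31). Irf7, which amplifies type I interferon, averaged 338 CPM at hour 3 and 967 at day 1, against 45.4 at hour 0 (2.89 ± 0.22 and 4.41 ± 0.23). Irf7 was 135 CPM at day 8 (1.57 ± 0.21 against hour 0) and 49.99 at day 23 (0.14 ± 0.21, not called). At day 1 and at day 2 against hour 0, 6 of the 14 rose and 2 fell, while 4 rose at day 8 and 2 at day 23 (under library totals 1 rose and 2 fell at day 8, and 0 rose and 2 fell at day 23). Of all genes, 9.67%, 5.12%, 11.2% and 8.51% rose at day 1, day 2, day 8 and day 23, and 12.8% and 9.63% fell at day 1 and day 2. Of the chains that pair with Il10rb, Ifnlr1 averaged 3.36 to 9.21 CPM and was called in none of the 9 comparisons, though with library totals it was lower at hour 3 than at hour 0 (-1.38, adjusted p 0.0183) and higher at day 8 than at hour 3 (1.68, adjusted p 0.00950). Il10ra, a chain of leukocytes, averaged 11.9 CPM at day 8 and 3.35 at hour 0 (1.84 ± 0.52, adjusted p 0.00748). Il22ra1, a chain of epithelial cells, averaged 0 CPM at hour 3 and day 23, against 2.20 at hour 0, in libraries on the 2 sides of the background difference. Krt8, an epithelial keratin, averaged 308 CPM at hour 3 and 311 at day 23, against 57.3 at hour 0, but the epithelial genes did not move together. Of 8 such genes, 4 rose and 3 fell at hour 3 against hour 0, beside 16.9% and 43.1% of all genes. At day 23 against hour 0, 6 rose and 0 fell, beside 8.51% and 25.4%.

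Of 24 type I interferon-stimulated genes, 23 rose at hour 3 against hour 0, and all 24 did so at day 1 and again at day 2. Of all genes, 16.9%, 9.67% and 5.12% rose in these comparisons. The median log2 fold changes of the 24 were 2.85, 3.46 and 3.01, beside -1.41, -0.41 and 0.29 over all genes tested. Ifit1, an antiviral RNA-binding protein, averaged 2092 CPM at hour 3 and 39.9 at hour 0 (5.71 ± 0.25). Oas3, which makes the signal for RNase L, averaged 109 CPM at day 1 and 1.62 at hour 0 (6.13 ± 0.42). Against hour 0, 11 of the 24 were higher at day 8 and 7 at day 23 (5 and 3 with library totals), beside 11.2% and 8.51% of all genes. Lower were 1 and 2 (1 and 6 with library totals), beside 32.7% and 25.4%. The median log2 fold changes of the 24 were 0.46 and 0.37, beside -0.68 and -0.53 over all genes tested.

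Of 23 interferon-gamma-responsive genes, the numbers higher than at hour 0 were 17 for hour 3, 19 for day 1, 18 for day 2, 20 for day 8 and 19 for day 23 (12, 19, 18, 18 and 18 with library totals), beside 16.9%, 9.67%, 5.12%, 11.2% and 8.51% of all genes. In the same order 2, 0, 1, 1 and 1 fell, beside 43.1%, 12.8%, 9.63%, 32.7% and 25.4%. The median log2 fold changes of the 23 were 2.26, 3.27, 2.35, 1.55 and 1.36, the last 2 beside -0.68 and -0.53 over all genes. Many of these genes also respond to type I interferon. Cxcl10, a chemokine for T cells, averaged 1768 CPM at hour 3 and 16.4 at hour 0 (6.75 ± 0.36), and Cxcl9, of the same family, averaged 660.0 CPM at day 1 and 9.41 at hour 0 (6.10 ± 0.51). Cd74, the invariant chain of MHC class II, averaged 388 CPM at day 8 and 24.7 at hour 0 (3.97 ± 0.45), in libraries where 4 of 10 macrophage, monocyte and dendritic cell genes rose as well, whose part in its level was not tested. At day 8 against hour 3, 21 of the 24 type I genes fell and 0 rose (20 and 1 with library totals), and of the 23 interferon-gamma-responsive genes 12 fell and 6 rose (7 and 7 with library totals).

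Day 1 replicate 14, the library with 2 Ifnb1 reads, differed from the other two day 1 libraries over all genes and in both response lists. This library was singled out after its values were seen, so what follows is a description of 3 libraries with no test. The chi-square per degree of freedom between libraries was 36.5 for replicates 14 and 13 and 40.5 for replicates 14 and 15, against 14.6 for replicates 13 and 15. Of all 27525 tested genes, 42.1% were above both other libraries in replicate 14 and 29.3% below both, with a median ratio of 1.05. It held 4 Ifng reads, against 0 in replicate 13 and 2 in replicate 15, where 1.24 were predicted from its background. Of the 23 interferon-gamma-responsive genes, 21 were above both other libraries and 0 below both, with a median ratio of 1.82 to their mean. Ciita, the switch of MHC class II genes, had 13.1 CPM in replicate 14, 1.21 in replicate 13 and 0.897 in replicate 15, and Cxcl9 had 1261 CPM in replicate 14, 417 in replicate 13 and 303 in replicate 15. Of the 24 type I genes, 4 were above both and 16 below both, with a median ratio of 0.853. Without replicate 14, 24 of the 24 type I genes and 18 of the 23 interferon-gamma-responsive genes rose at day 1 against hour 0, and 2 interferon-gamma-responsive genes fell.

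**Figure D5:**
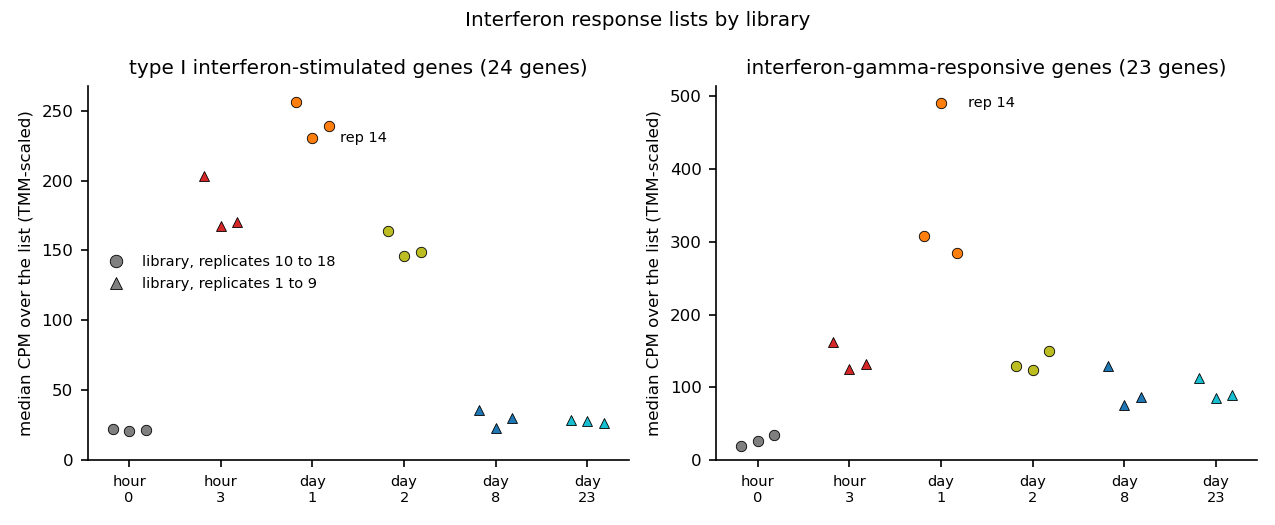
Median TMM-scaled CPM over 24 type I interferon-stimulated genes (left) and 23 interferon-gamma-responsive genes (right) in each library, by time group. Day 1 replicate 14 has the highest median of the right panel, 491 CPM against 285 and 308 in the other day 1 libraries, and the lowest of the day 1 libraries on the left, 231 CPM.

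The genes whose log2 CPM followed each member most closely over the 18 libraries were found among tested genes with a mean of at least 10 CPM in their highest group. Pearson's r is given as a description, since the libraries share groups, depth and background. Ifnar1 was nearest to F2r (0.96), Ifnar2 to Hmox1 (0.97), Ifngr2 to Ptpn11 (0.98) and Ifngr1 to Rara (0.91). Il10rb was nearest to Kmt2a (0.86) and Socs1 (0.84), Ifnb1 to Il1rl1 (0.88) and Ifng to Hist1h2ai (0.80).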

How the data were processed

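RNA of gp38+ cells was sequenced in 18 libraries. The deposited files hold raw read counts per Ensembl gene, not normalized. FastQC, STAR, Subread, DESeq2 and build mm10 are named in the submitters' processing notes, while versions, strand setting and annotation release are not given in the sources used here. Of 55401 IDs, 55141 were matched to names, and the other 260 held 0.0241% of counts. Groups came from the labelled time points. Counts were scaled by TMM and fitted over all 18 libraries in R 4.3.3 with edgeR 4.0.16, whose quasi-likelihood test was used, after filterByExpr (10 counts, total 15), leaving 27525 genes. P-values were adjusted by Benjamini-Hochberg per comparison, and the threshold was 0.05. SE is the log2 fold change over the root of F. DESeq2 1.42.0 and limma-voom (limma 3.58.1) were alternatives. The fit was tested on simulated data. No 2 replicates held identical counts, and the lowest chi-square per degree of freedom of 18 replicate pairs was 3.80. A floor of 3 counts over the group bounds folds against 0, and 95% intervals are exact and cover counting error only, since reads lack molecular identifiers. The members, gene lists and rules were chosen with earlier results of these data known. From each list were named the receptor kinases, Stat2, Irf9, Usp18, Socs1, Irf7 and Ifnlr1, and up to 2 genes per direction and comparison with the largest called change and at least 10 CPM in the higher group. Ptpn6, Ifnk, Il22ra1, Klrk1, Tbx21, Ciita, Pdgfra, Pacsin1, Tcf4, Krt8 and day 1 replicate 14 were named after their values were seen. The values of 1 gene of these lists are not reported here.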

Additional observations from a re-analysis of the deposited data

Results flagged for a closer look

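Changes from a common baseline differed between time groups for several of the 7 genes, by edgeR's test of the difference itself with Benjamini-Hochberg adjustment. Between day 2 and day 1, both measured from hour 0, the log2 difference was -0.60 for Ifnar2 (adjusted p 0.0164), -1.25 for Ifngr1 (adjusted p 9.43e-05) and -1.19 for Ifngr2 (adjusted p 2.51e-05). These 2 groups lie in the same set of 9 libraries. Between day 8 and hour 3 it was -0.72 for Ifnar1, -1.58 for Ifnar2 and -1.45 for Ifngr2. Between day 23 and hour 3 it was -0.67 for Ifnar1, -1.26 for Ifnar2 and -1.87 for Ifngr2. Ifnb1 had a fitted difference of -5.95 in both, a value that depends on the prior count because day 8 and day 23 held 0 reads; the bounds are at least 9.70-fold lower at day 8 and at least 5.55-fold lower at day 23. Those of Ifnar1 against hour 3 turned to 0.06 with library totals.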

How the results depend on the processing

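Of 1827 alternative values for 70 gene results, 1725 kept their side of the threshold, 68 lost the call and 29 gained one. A further 5 turned round, with a call before or after the change. Values that were not called could change sign and still be among the 1725. Ifngr1 at day 8 against hour 3, for example, was -0.37 as reported and up to 0.41 in the alternatives. The results over the 6 groups have no direction. Those 5 were all with library totals alone: at hour 3 against hour 0 Ifnar1 (-0.41) and Il10rb (-0.72), at day 8 against hour 3 Ifnar1 (0.0602), and at day 23 against hour 3 Ifnar1 (0.0628) and Il10rb (0.69). By construction these differ from the values above only in scaling. The number of members called was 3 at hour 3 against hour 0 and 5 with library totals, and 3 at day 2 against day 1 and 5 with limma-voom. At day 23 against hour 0 it was 2, but 1 with at least 5 CPM in 3 libraries, 0 in a fit of the 2 groups, 1 with the background subtracted and 1 without the day 2 libraries, a setting chosen after seeing the data, as were the list counts under other settings. Leaving out 1 replicate gave 3 to 4 members at hour 3, 2 to 4 at day 1, 1 to 3 at day 2, 0 to 4 at day 8 and 0 to 3 at day 23 against hour 0. It gave 2 to 3 at day 2 against day 1, 4 to 4 at day 8 and 3 to 4 at day 23 against hour 3, 0 to 1 at day 23 against day 8 and 5 to 7 over the 6 groups. The call over the 6 groups was lost in 14 of 23 alternatives for Ifng and 8 of 25 for Il10rb.

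Counts of all genes called moved by over 1.5 times as follows. With at least 5 CPM in 3 libraries, which tests fewer genes, they were 9329 (16503 as reported) at hour 3, 4851 (12076) at day 8, 3312 (9348) at day 23 against hour 0 and 12685 (23092) over the 6 groups. With only the 2 groups they were 7182 at day 8 and 1997 at day 23 against hour 0, and 708 (1465) at day 23 against day 8. Limma-voom gave 6427 (4061) at day 2 against hour 0 and 13496 (6388) at day 2 against day 1, and DESeq2 2267 at day 23 against day 8. Without the day 2 libraries they were 6783 at day 8 and 5123 at day 23 against hour 0, and 5185 at day 23 with the background subtracted. Leaving out 1 replicate gave 7204 to 14126 at day 8 and 4061 to 10426 at day 23 against hour 0, 3490 to 7745 at day 2 against day 1 and 593 to 1777 at day 23 against day 8. Among called genes, the percentage higher was, with library totals, 7.09% (28.1% as reported) at hour 3, 66.7% (34.7%) at day 2, 10.3% (25.5%) at day 8 and 6.05% (25.1%) at day 23 against hour 0, 77.9% (51.8%) at day 2 against day 1, 81.9% (53.9%) at day 8 and 80.0% (52.3%) at day 23 against hour 3. With DESeq2 size factors it was 52.7% at day 2 against hour 0 and 71.0% against day 1. No paired analysis was possible because the groups share no replicate numbers. Depth limits Ifnb1 and Ifng, which some stricter fits could not test.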
